A study of Mus musculus with 16 samples.

Results

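Anpep, Mme, Dpp4, Enpep, Cpm and Ace encode peptidases that sit on the outer face of the cell membrane, and their transcripts were followed through 16 RNA sequencing libraries of sorted mouse alveolar type 2 (AT2) cells. The 6 genes were taken by symbol from a count table of 27179 gene identifiers. They were picked with their levels across the groups already known, so those levels and the differences between groups are given as a description, with no p-value for any of the 6. All 6 passed the filter on low counts that left 15516 genes for testing.

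The libraries fall into 4 groups of 4. Column names carry a prefix, R26 or OG, a number and the sort, CD44- or CD44+. Each number occurs once in each sort of its prefix, and libraries are named by it here as replicates. That a number stands for 1 animal is not stated in the labels, and the numbers differ from those in the sample titles. The labels give SP-C WT or SP-C Mutant as genotype (SP-C is surfactant protein C, encoded by Sftpc) and the treatment text OG TMX on all 16 samples, controls included. No label ties a prefix to a genotype. Reading R26 as the control and OG as the mutant is an inference, and groups are therefore named by prefix. The CD44 comparisons within a prefix do not depend on that reading, whereas the meaning of every OG against R26 difference does. The mutation, its promoter, the strain, the age and the time after treatment are not given in the labels used here. Per the protocols in the labels, lungs were dissociated, cells carrying CD45 or CD31 were depleted, and live cells positive for Epcam, high for CD200 and negative for CD104 were then divided by CD44.

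Ectopeptidases trim or inactivate peptide hormones, chemokines and kinins at the cell surface, and so set how long such signals last around a cell. Each enzyme has its own cut. Aminopeptidase N (Anpep, also CD13) and aminopeptidase A (Enpep) remove residues from the amino end, Enpep with a preference for acidic ones such as the first residue of angiotensin II. Dipeptidyl peptidase 4 (Dpp4, also CD26) takes off an amino-terminal dipeptide after proline or alanine. Carboxypeptidase M (Cpm) removes a carboxy-terminal lysine or arginine and is held in the membrane by a lipid anchor. Neprilysin (Mme, also CD10) cuts inside small peptides such as natriuretic peptides and kinins. Angiotensin-converting enzyme (Ace) makes angiotensin II and degrades bradykinin, and in the lung it is best known from the capillary endothelium. AT2 cells make surfactant and are progenitors of the alveolar epithelium.

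The 6 genes lie on separate loci in GRCm38.p6. Anpep (Entrez 16790) spans chr7:79821803-79848210 on the minus strand, Mme (17380) chr3:63295211-63383713 on the plus strand and Dpp4 (13482) chr2:62330073-62412315 on the minus strand. Enpep (13809) spans chr3:129269177-129332749 on the minus strand, Cpm (70574) chr10:117629500-117687352 on the plus strand and Ace (11421) chr11:105967948-105989964 on the plus strand. Exons of Dpp4 and Ace overlap the antisense genes Gm13561 and Gm11651. The strand setting of the counting is not given in the sources used here, so reads from those antisense genes cannot be told apart from reads of Dpp4 and Ace.

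The start regions of Anpep, Enpep and Ace are shown because these genes differ in the size or direction of their change. RefSeq windows of 300 bases on GRCm38.p6, from 250 before to 50 after an annotated start, were available for all 6, with 9 windows in all (3 for Mme, 2 for Ace). Anpep has the widest range of levels of the 6, Enpep among the narrowest, and Ace runs in the opposite direction. The Anpep window is chr7:79848161-79848460 (minus strand), the Enpep window chr3:129332700-129332999 (minus strand) and the first Ace window chr11:105967698-105967997 (plus strand). Each is printed 5′ to 3′ along the gene, and capitals mark every match, on either strand, to the motifs searched.
Anpep: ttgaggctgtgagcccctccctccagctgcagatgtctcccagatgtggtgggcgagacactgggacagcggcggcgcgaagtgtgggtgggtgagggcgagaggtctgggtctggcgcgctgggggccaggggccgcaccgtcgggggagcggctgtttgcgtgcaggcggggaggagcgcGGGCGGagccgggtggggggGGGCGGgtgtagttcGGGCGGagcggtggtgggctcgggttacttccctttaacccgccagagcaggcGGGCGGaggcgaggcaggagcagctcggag
Enpep: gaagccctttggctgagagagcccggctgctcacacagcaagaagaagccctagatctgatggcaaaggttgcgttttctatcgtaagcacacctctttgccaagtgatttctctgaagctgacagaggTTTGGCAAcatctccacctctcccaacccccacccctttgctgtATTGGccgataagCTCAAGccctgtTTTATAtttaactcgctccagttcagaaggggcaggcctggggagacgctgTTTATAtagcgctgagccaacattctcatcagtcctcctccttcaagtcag
Ace: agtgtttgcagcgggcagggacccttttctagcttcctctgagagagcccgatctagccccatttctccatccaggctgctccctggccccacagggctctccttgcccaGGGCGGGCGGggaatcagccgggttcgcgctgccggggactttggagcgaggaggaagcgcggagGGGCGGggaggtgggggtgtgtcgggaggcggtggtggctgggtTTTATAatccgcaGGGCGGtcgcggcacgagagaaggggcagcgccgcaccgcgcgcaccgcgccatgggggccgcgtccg
The motifs were the TATA box TATAAA, the GC box GGGCGG, the CCAAT box CCAAT, NKX2-1 CTCAAG, C/EBP TTGCNNAA, AP-1 TGANTCA, TEAD GGAATG and ETS CCGGAAGT, with the HNF1 motif by its name alone, all read on both strands. Capitals in the Anpep window are 4 GC boxes. Those in the Enpep window are 2 TATA boxes on the opposite strand, 1 CCAAT box, 1 NKX2-1 match and 1 C/EBP match. In the Ace window they are 4 GC boxes, of which 2 run together, and 1 TATA box on the opposite strand. Of the 32851 windows in the RefSeq table, 35.7% hold a GC box, 13.6% a TATA box, 37.4% a CCAAT box, 15.9% the NKX2-1 letters and 10.8% the C/EBP letters. GC content was 72.3% in the Anpep window, 51.3% in the Enpep window and 69.7% in the Ace window, against a median of 52.7% over all windows. A GC box was found in windows of Anpep, Mme, Cpm and Ace, and the NKX2-1 letters in that of Enpep. Neither the ETS letters (3.89% of all windows), the HNF1 motif (0.00913%) nor, outside Mme, the AP-1 letters (7.81%) were found. Matches to the TEAD letters (14.7% of all windows) were in windows of Dpp4 and Mme. These matches describe letters in the windows and do not show binding.

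Library totals ran from 9022471 to 21363816 counts. The labelled cell type was checked by 12 AT2 markers, whose summed level was 134017 to 149571 CPM (counts scaled to a common library total) in R26 CD44-, 93202 to 125423 in R26 CD44+, 45400 to 48641 in OG CD44- and 23375 to 26950 in OG CD44+. None was at 0 in any group, and all 12 were lower in CD44+ than in CD44- within each prefix and in OG than in R26 within each sort. Sftpc, the gene named in the genotype, made up much of that sum. It averaged 73534 ± 5532, 53182 ± 9844, 12175 ± 471 and 7030 ± 587 CPM in this group order. Nkx2-1 changed less, at 552 ± 7.71, 448 ± 20.3, 444 ± 4.65 and 357 ± 15.5 CPM. Markers of other cells, in the same group order, moved as well. The 12 markers of alveolar type 1 (AT1) cells, the flat cells to which AT2 cells give rise, summed to 2125 to 2228, 3014 to 3542, 5485 to 6039 and 6026 to 6395 CPM. The group means of this sum ran in the reverse of the AT2 order, with some overlap between the OG groups, but single markers differed. Rtkn2, Cav1 and Spock2 had their highest mean in R26 CD44+, at 94.3, 145 and 147 CPM. At an edgeR adjusted p under 0.05, 7 of the 12 were higher and 2 lower in OG CD44+ than in OG CD44-. The shares of all genes were 22.3% and 28.0%. The 9 B and plasma cell markers summed to 19.3 to 35.9, 1598 to 3568, 80.2 to 152 and 1478 to 4320 CPM, with Pax5 at 0 in both CD44- groups. The 9 airway epithelial markers summed to 373 to 785, 1346 to 2449, 509 to 621 and 1645 to 2226 CPM, with none at 0. Ptprc, the gene of CD45, averaged 0.151 ± 0.0264, 7.68 ± 4.54, 1.26 ± 0.342 and 5.45 ± 2.60 CPM. Cd44, the gene of the sorting antigen, averaged 304 ± 12.0, 463 ± 90.2, 585 ± 24.6 and 961 ± 32.5 CPM in the same group order (SD, n = 4, as for every ± beside a level). R26 CD44+ replicate 2 had the highest AT2 marker sum of its group. OG CD44+ replicate 3 had a fibroblast marker sum of 5731 CPM, against 3478 at the lowest in its group. In bulk samples, fewer cells that carry a transcript and less transcript per cell cannot be told apart.

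Levels are CPM over a library's total count and compare libraries, not genes. Across the groups 5 of the 6 transcripts followed 1 order, highest in R26 CD44-, then R26 CD44+, then OG CD44-, and lowest in OG CD44+. For Anpep, Mme, Dpp4, Enpep and Cpm no pair of neighbours in that order overlapped. Over all genes the groups did not overlap, with CD44+ lower, for 6.04% in R26 and 27.0% in OG. That share was not computed for R26 CD44+ against OG CD44-, nor for the whole order. Nothing is read from this separation, since the genes were chosen on these levels. Ace ran the other way, lowest in R26 CD44- and highest in OG CD44+.

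**Figure D1:**
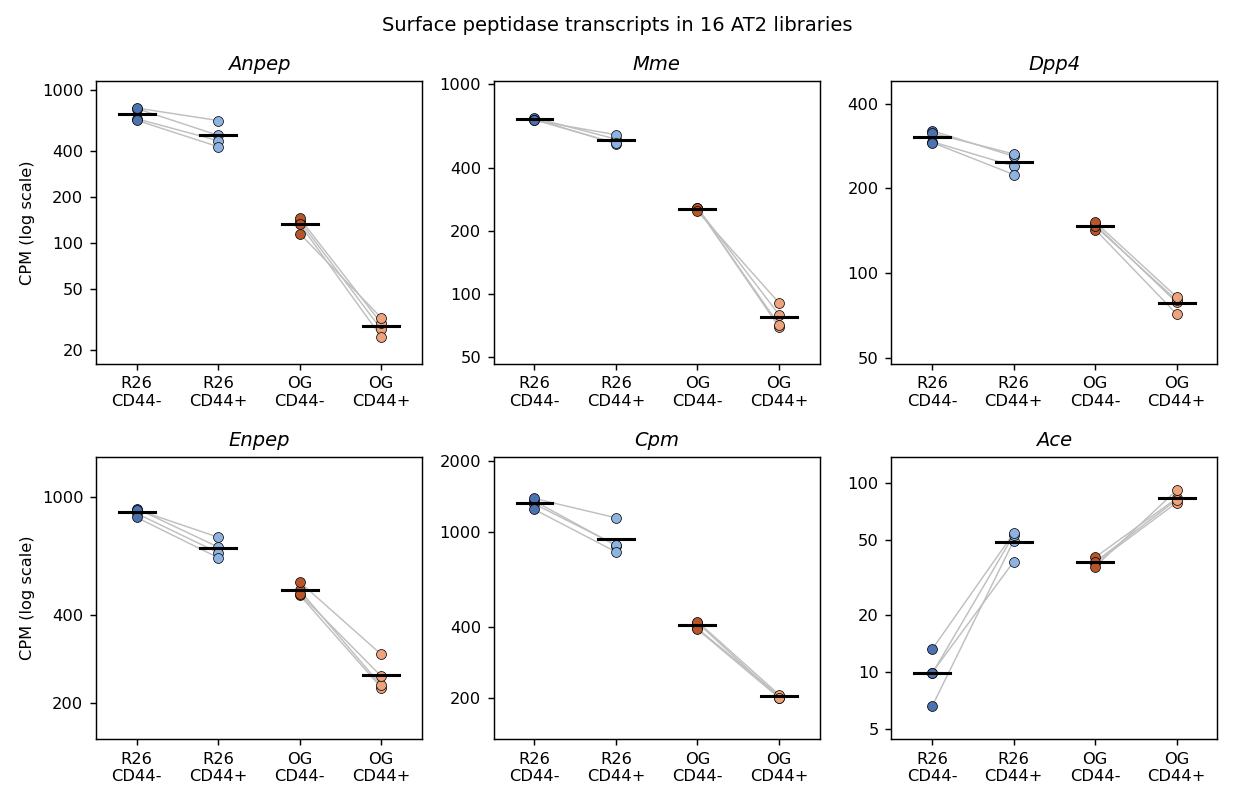
CPM on a log scale for each of the 6 genes in 16 libraries; each point is 1 library, black bars are group means (n = 4) and grey lines join CD44- and CD44+ libraries that carry the same number. For Anpep the R26 CD44- libraries lie at 630.4 to 758 CPM and the OG CD44+ libraries at 24.4 to 32.5, while Ace lies at 6.61 to 13.2 and 78.4 to 91.3.

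Among the aminopeptidases, Anpep had the widest spread of levels between groups of the 6. In R26 CD44- replicates 8, 7, 2 and 1 it was at 752, 645, 758 and 630.4 CPM, and in their CD44+ libraries at 503, 464, 628 and 424. In OG CD44- replicates 7, 6, 5 and 3 it was at 139, 145, 133 and 115 CPM, and in the matching CD44+ libraries at 27.3, 29.9, 24.4 and 32.5. The R26 sorts nearly touched, at 630.4 against 628, whereas the OG groups lay far apart from each other and from both R26 groups. Group means were 696 ± 68.2, 505 ± 88.6, 133 ± 13.1 and 28.5 ± 3.46 CPM, a ratio of 24.4 between R26 CD44- and OG CD44+.

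Enpep spanned much less. Its libraries in the same replicate order were at 916, 882, 909 and 855 CPM in R26 CD44- and 678, 649, 732 and 624 in R26 CD44+. OG CD44- libraries were at 466, 484, 471 and 516 and OG CD44+ libraries at 226, 229.8, 247 and 293. Replicate 3 was the highest of both OG groups for Enpep, and of the OG CD44+ group for Anpep, Mme, Dpp4 and Ace too. Means of 890.3 ± 27.9, 671 ± 46.2, 484 ± 22.3 and 249 ± 30.7 CPM gave an R26 CD44- to OG CD44+ ratio of 3.58, the smallest of the 5 genes in this order.

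Dpp4, the dipeptidyl peptidase, was measured at 320.5, 314, 293 and 291 CPM in R26 CD44- and 260, 265, 240.1 and 224 in R26 CD44+. In OG it was at 143, 149, 147 and 152 CPM in CD44- and at 71.7, 78.8, 80.2 and 82.4 in CD44+. All groups were separate, and the OG CD44- libraries were tightly placed, with an SD of 3.45 around 148 CPM. The highest mean, 304 ± 15.0 CPM, was 3.89 times the lowest, 78.3 ± 4.63, with R26 CD44+ at 247 ± 18.7 between them.

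Cpm, the carboxypeptidase, had 4 groups that did not overlap. Its R26 CD44- libraries were at 1357, 1319, 1391 and 1250 CPM, and its R26 CD44+ libraries at 879.8, 886, 1153 and 828. OG CD44- libraries were at 394, 416, 421 and 390.4 CPM and OG CD44+ libraries at 205, 201, 207 and 201. R26 CD44+ replicate 2, which also had the highest AT2 marker sum of its group, stood above the other 3 for Cpm, and the OG CD44+ libraries differed by little. Means were 1329 ± 60.7, 937 ± 147, 405 ± 15.3 and 204 ± 2.62 CPM, the first of them 6.53 times the last.

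Mme, the endopeptidase neprilysin, was at 683, 692, 673 and 677 CPM in R26 CD44- and 521, 548, 575 and 524 in R26 CD44+. OG CD44- libraries were at 257, 257, 257 and 248 CPM, and OG CD44+ libraries at 69.5, 71.2, 79.6 and 90.6. The CD44- libraries of each prefix were close together, and the OG CD44+ libraries were spread more widely for their level. With means of 681 ± 8.4, 542 ± 25.2, 255 ± 4.52 and 77.7 ± 9.65 CPM, Mme had the second widest range of the 5, a ratio of 8.77.

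Ace was measured in R26 CD44- at 6.61, 9.82, 9.93 and 13.2 CPM, and was at 49.3, 52.9, 38.3 and 54.1 in R26 CD44+. It was at 37.5, 40.3, 38.1 and 36.0 CPM in OG CD44- and at 78.4, 82.7, 81.3 and 91.3 in OG CD44+. R26 CD44- lay below and OG CD44+ above every other library, while R26 CD44+ and OG CD44- overlapped. Means were 9.9 ± 2.71, 48.7 ± 7.17, 38.0 ± 1.82 and 83.4 ± 5.57 CPM, so that the highest was 8.43 times the lowest.

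Fold changes come from 1 edgeR quasi-likelihood fit of the 16 libraries, scaled between libraries by the trimmed mean of M-values (TMM), so they differ slightly from ratios of the CPM above. In OG, CD44+ against CD44-, the log2 fold change was -2.24 ± 0.15 for Anpep (SE, as for every ± beside a log2 value), -1.73 ± 0.06 for Mme and -1.01 ± 0.09 for Cpm. It was -0.98 ± 0.07 for Enpep, -0.93 ± 0.05 for Dpp4 and 1.12 ± 0.11 for Ace. The count past an adjusted p of 0.05 was 5 lower and 1 higher, where 28.0% of all genes tested were lower, 22.3% higher and 50.4% either. Nothing is read from that count, here or in the other comparisons, because the genes were chosen on these values. For all 6 the groups did not overlap, which held for 50.5% of all genes (27.0% lower, 23.4% higher), and the median gene was at -0.06.

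In R26 the CD44 differences of the 5 were smaller. The log2 fold change, CD44+ against CD44-, was -0.55 ± 0.13 for Anpep, -0.42 ± 0.06 for Mme, -0.39 ± 0.05 for Dpp4, -0.49 ± 0.07 for Enpep and -0.59 ± 0.09 for Cpm. Ace was at 2.22 ± 0.14. Again 5 were lower and 1 higher past the threshold, against 15.4% and 21.6% of all genes (37.1% either), and the groups were separate for all 6 against 25.9% of all genes (6.04% lower, 19.9% higher). That background depends on scaling and on single libraries. It was 31.1% lower and 19.2% higher with OG CD44- replicate 7 as the TMM reference, 22.1% and 20.5% with DESeq2 size factors, 9.3% lower with only the 8 libraries compared, and 22.4% to 28.2% lower without any 1 R26 library. Without R26 CD44+ replicate 2, which gave the highest of these, Cpm moved from -0.59 to -0.81 and Anpep from -0.55 to -0.78. The median gene moved by -0.07 there, and by -0.08 to -0.06 without any other 1 R26 library.

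CD44- and CD44+ libraries that carry the same number can be set against each other, if that number marks 1 animal. Within R26 numbers the log2 ratio of CD44+ to CD44- CPM ran from -0.58 to -0.27 for Anpep, from -0.39 to -0.23 for Mme and from -0.62 to -0.27 for Cpm. Within OG numbers it ran from -2.45 to -1.82 for Anpep, from -1.89 to -1.45 for Mme and from -1.05 to -0.94 for Cpm. Dpp4 (-0.37 to -0.24 in R26, -1.0 to -0.87 in OG) and Enpep (-0.45 to -0.31, -1.08 to -0.82) likewise had no R26 pair within the range of the OG pairs. For Ace the ratio was above 0 in all 8 pairs, at 1.95 to 2.90 in R26 and 1.03 to 1.34 in OG.

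The difference between the prefixes in the CD44 log2 fold change, OG minus R26, was -1.69 ± 0.20 for Anpep and -1.31 ± 0.08 for Mme. It was -0.54 ± 0.07 for Dpp4, -0.48 ± 0.10 for Enpep, -0.42 ± 0.13 for Cpm and -1.10 ± 0.18 for Ace. A negative value means a larger decrease in OG for the first 5, and a smaller increase in OG for Ace. All 6 were below 0 past the threshold, where 18.1% of all genes were lower, 6.57% higher and 24.7% either, and the median gene was at -0.10. With OG CD44- replicate 7 as the TMM reference that median moved by 0.15, and 10.9% of all genes were lower and 15.3% higher. Cpm was then at -0.26. Cpm was not past the threshold in 10 of the 23 alternatives run, this one included, and as above nothing is read from such calls. Without R26 CD44+ replicate 2 Cpm was at -0.15 and Enpep at -0.28, and without R26 CD44- replicate 1 Cpm was at -0.27. Leaving out any 1 R26 library moved the median gene by 0.12, to 0.02 or 0.03.

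Between prefixes, the OG CD44- against R26 CD44- log2 fold change was -2.56 ± 0.14 for Anpep, -1.88 ± 0.09 for Cpm and -1.59 ± 0.06 for Mme. Dpp4 was at -1.21 ± 0.05, Enpep at -1.05 ± 0.07 and Ace at 1.78 ± 0.14. Past the threshold 5 were lower and 1 higher, against 29.6% and 39.4% of all genes (69.0% either). In the CD44+ sorts the OG against R26 value was -4.25 ± 0.16 for Anpep, -2.90 ± 0.06 for Mme, -2.30 ± 0.09 for Cpm, -1.76 ± 0.05 for Dpp4, -1.53 ± 0.07 for Enpep and 0.68 ± 0.11 for Ace. There, too, 5 were lower and 1 higher, against 34.6% and 34.5% of all genes (69.1% either). Groups were separate for all 6 in both comparisons, as for 69.9% of all genes in CD44- (21.8% lower, 48.1% higher) and 58.5% in CD44+ (24.2% lower, 34.4% higher). These comparisons share libraries with the CD44 comparisons, and only prefix, not genotype, is read from the columns.

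**Figure D2:**
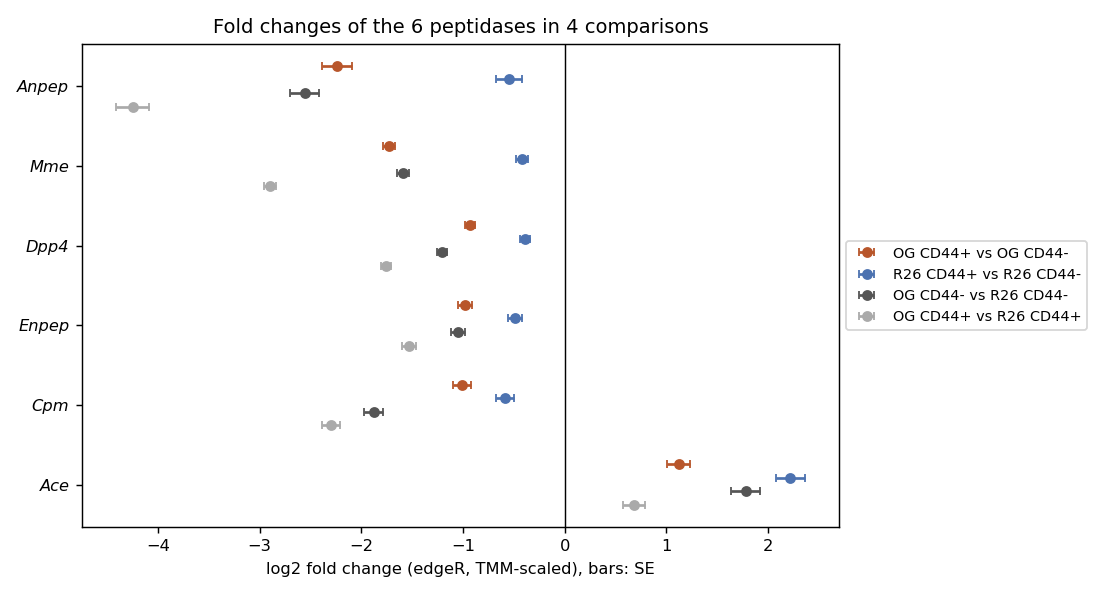
Log2 fold change (x axis, edgeR, TMM-scaled) of each of the 6 genes in 4 comparisons, with bars of 1 SE. Anpep, Mme, Dpp4, Enpep and Cpm lie left of 0 in all 4, from -0.39 for Dpp4 in R26 to -4.25 for Anpep between CD44+ sorts, and Ace lies right of 0, from 0.68 to 2.22.

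The 12 AT2 markers give a scale for these values, since the 5 genes and the markers were lower in the same comparisons. The markers' median log2 fold change was -0.75 in OG CD44+ against CD44-, -0.55 in R26, -0.94 between CD44- sorts and -1.08 between CD44+ sorts. Between the OG sorts, none of the 12 markers was below Anpep or Mme, 3 were below Enpep and Cpm, and 4 below Dpp4. In R26, 11 of the 12 were below Mme and Dpp4, 10 below Enpep, 5 below Anpep and 4 below Cpm. The part of the AT2 decrease in the peptidases' decrease was not tested, nor was that of the AT1, airway, and B and plasma cell markers that were higher in some of the same groups.

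To compare the genes with each other, CPM was divided by the length of each gene's merged exons in kb (GENCODE M21). For Mme that length, 11.542 kb, covers several isoforms, so its level per kb may be understated. In R26 CD44- Cpm was the highest at 223 CPM per kb, followed by Enpep at 189, Anpep at 168, Mme at 59.0, Dpp4 at 48.2 and Ace at 1.87. In OG CD44+ the order was Enpep at 52.9, Cpm at 34.1, Ace at 15.8, Dpp4 at 12.4, Anpep at 6.89 and Mme at 6.73, where Anpep and Mme did not differ beyond their SD of 0.836 each.

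The sum over the 6 was 689.5 ± 31.9 CPM per kb in R26 CD44-, 517 ± 55.8 in R26 CD44+, 256 ± 4.27 in OG CD44- and 129 ± 9.23 in OG CD44+. Its make-up differed between groups. Anpep held 24.4% ± 1.32 of the sum in R26 CD44- and 5.35% ± 0.517 in OG CD44+, whereas Ace held 0.274% ± 0.0862 and 12.2% ± 0.251. Enpep held 27.5% ± 0.438 and 41.0% ± 2.04, the largest share in both OG groups. Cpm went from 32.3% to 26.6%, Mme from 8.58% to 5.21% and Dpp4 from 6.99% to 9.63%.

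**Figure D3:**
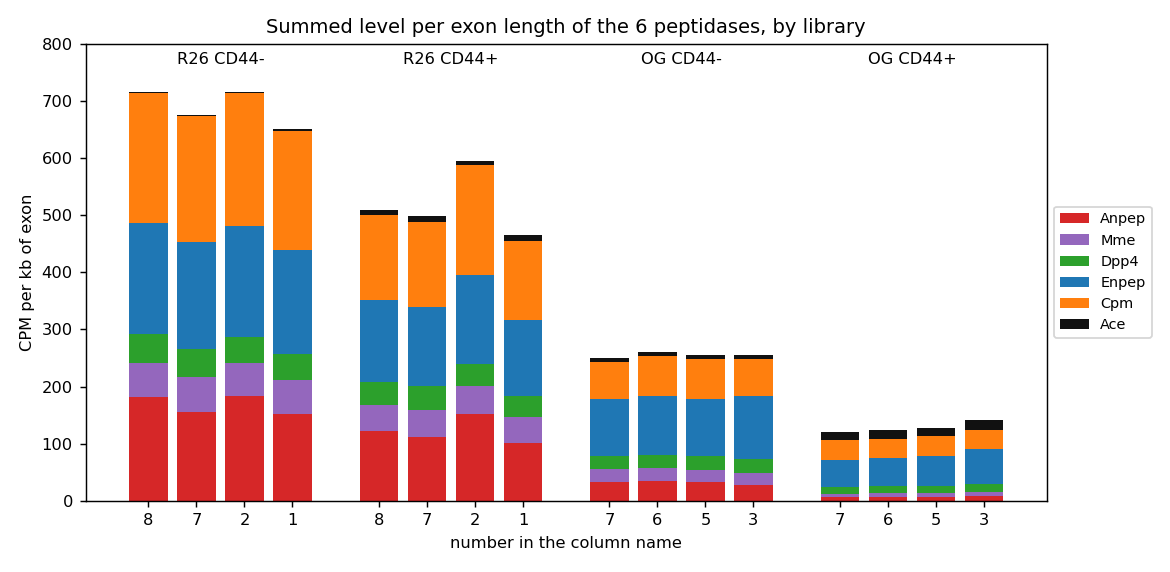
CPM per kb of merged exon, stacked over the 6 genes, 1 bar per library with the number from its column name below it. Bars of the R26 CD44- group reach 651 to 716 CPM per kb and those of the OG CD44+ group 121 to 142, and the black Ace segment is visible mainly in OG CD44+.

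Genes with the most similar profile were found by the root mean square difference of centred log2 CPM over the 16 libraries, among 7151 well-expressed genes. Nearest to Anpep was Lyz2, a lysozyme gene expressed by mouse AT2 cells, at 0.163, then Nrn1 at 0.198 and Acoxl at 0.204. Lyz2 averaged 23223 ± 1407 CPM in R26 CD44- and 1137 ± 50.9 in OG CD44+. For Mme the nearest were Chil1 (0.165), Tbc1d4 (0.17) and Ang (0.195), and for Cpm they were Lgi3 (0.077), Selenop (0.113) and Arhgef38 (0.14). Dpp4 was nearest to Entpd1, which encodes the surface ATPase CD39, at 0.08, then Adam19 (0.082) and Rab27a (0.087). Enpep was nearest to Ttc38 (0.104), Eps8 (0.107) and Gprin3 (0.116). The nearest profiles to Ace were farther off, with Ets1 at 0.201, Pfkfb3 at 0.256 and Mxra8 at 0.291. Among the 6 themselves Dpp4 and Enpep were the closest pair at 0.14, and Ace was 1.77 to 2.80 from the others. All 16 libraries enter each value and share the group differences, so this is a description.

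Because Ace marks lung endothelium, markers of other cells are given beside it. The sum of 14 endothelial markers ran from 139 to 159 CPM in R26 CD44-, 241 to 290.1 in R26 CD44+, 215 to 227 in OG CD44- and 129.6 to 157 in OG CD44+, with none at 0. Esam made up much of that sum, at 103 to 110.3, 85.0 to 93.8, 151 to 162 and 94.1 to 96.7 CPM. The other 13 summed to 32.1 to 49.0, 149 to 199, 60.7 to 73.0 and 34.6 to 63.1 CPM, highest in R26 CD44+. Pecam1, the gene of the depleted antigen CD31, averaged 3.58 ± 0.953, 17.8 ± 2.41, 4.85 ± 0.628 and 3.78 ± 3.20 CPM. The 12 fibroblast markers summed to 146 to 186, 925 to 2184, 1257 to 1321 and 3478 to 5731 CPM, and the 6 mesothelial markers to 8.17 to 9.82, 38.7 to 53.1, 40.4 to 51.0 and 107 to 123 CPM. None of these was at 0. Fn1 led the fibroblast sum in OG CD44+, at 1810 ± 343 CPM. Between CD44+ sorts 4 of the 12 fibroblast markers were called higher in OG and 4 lower, against 34.5% and 34.6% of all genes. Dcn, 1 of the lower, averaged 79.4 ± 14.0 CPM in R26 CD44+ and 38.0 ± 6.3 in OG CD44+. Msln led the mesothelial sum, with means of 3.29, 25.3, 37.6 and 112 CPM in the same group order. In OG CD44+ the whole sum averaged 117 CPM. Upk3b, Lrrn4, Wt1 and Bnc1 had their highest mean in R26 CD44+, and only Msln had it in OG CD44+. The fibroblast and mesothelial sums were, like Ace, lowest in R26 CD44- and highest in OG CD44+, as was the group mean of the AT1 sum given above. The part of the AT1, endothelial, fibroblast and mesothelial markers in the Ace result was not tested. Pericyte markers (10) summed to 20.4 to 29.4, 109 to 149, 54.6 to 62.8 and 97.4 to 123 CPM.

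**Figure D4:**
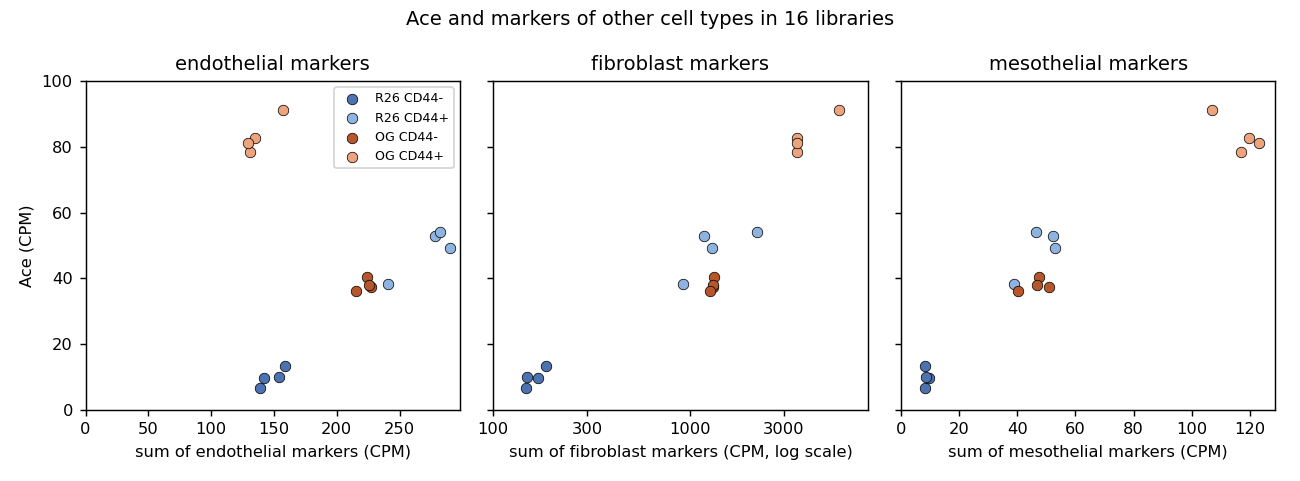
Ace (y axis, CPM) against the summed CPM of endothelial, fibroblast (log scale) and mesothelial markers, 1 point per library, coloured by group. OG CD44+ libraries have the highest Ace, at 78.4 to 91.3 CPM, with endothelial sums of 129.6 to 157 CPM and fibroblast sums of 3478 to 5731 CPM.

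Other peptidases of the cell surface changed in both directions. Of 37 on the list 25 could be tested. Between the OG sorts, CD44+ against CD44-, 7 rose and 6 fell (median log2 fold change 0.09, all genes -0.06), shares near the 22.3% and 28.0% of all genes. In R26, 9 rose and 5 fell, against 21.6% and 15.4% of all genes (median 0.12, all genes -0.02). The number that fell was 8 without R26 CD44+ replicate 7 and 8 without replicate 2, where 24.8% and 28.2% of all genes fell. Between CD44- sorts 13 rose and 5 fell in OG, against 39.4% and 29.6% of all genes (median 0.28, all genes 0.12), and between CD44+ sorts 12 rose and 6 fell, against 34.5% and 34.6% (median 0.18, all genes -0.01). Adjusted p-values for these genes are from edgeR with Benjamini-Hochberg adjustment over all 15516 genes. Unless another setting is named with them, shares of all genes here and for the lists below are from the same fit. They move with scaling as given above.

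Ggt5, a gamma-glutamyl transferase that acts on leukotriene C4, had the group order of Anpep. It averaged 92.6 ± 4.0, 74.4 ± 1.97, 27.5 ± 0.894 and 13.2 ± 1.15 CPM in the group order used above. It fell by 1.07 ± 0.07 on the log2 scale in OG CD44+ against CD44- (edgeR adjusted p = 1.82e-11), and was at -1.92 ± 0.06 between CD44- sorts (7.30e-19). Tmprss4, a transmembrane serine protease, also fell in all 4 comparisons, with means of 91.4 ± 4.42, 74.5 ± 8.56, 51.2 ± 2.73 and 33.7 ± 2.40 CPM and -1.01 ± 0.08 between CD44- sorts (edgeR adjusted p = 1.83e-10). Prss8, prostasin, fell in R26 CD44+ against CD44- (-0.46 ± 0.07, edgeR adjusted p = 1.31e-05) and was at -0.14 ± 0.07 in OG (adjusted p = 0.108).

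Higher in OG were Adam10, a protease that sheds other membrane proteins, and St14, the serine protease matriptase. Adam10 averaged 81.7 ± 3.16 CPM in R26 CD44- and 255 ± 12.8 in OG CD44-, a log2 fold change of 1.47 ± 0.05 (edgeR adjusted p = 1.91e-17), and was at 0.09 ± 0.05 between the OG sorts (0.155). St14 rose between the OG sorts, from 199 ± 4.89 to 278 ± 12.0 CPM (0.47 ± 0.04, edgeR adjusted p = 9.01e-09), and was at -0.05 ± 0.05 in R26 (0.463). Ece2, a relative of endothelin-converting enzyme, averaged 1.11 ± 0.236 CPM in R26 CD44- and 13.6 ± 0.98 in OG CD44- (3.43 ± 0.19, edgeR adjusted p = 7.48e-14), then fell to 5.96 ± 0.629 in OG CD44+ (-1.19 ± 0.16, 1.22e-06). Corin, which activates atrial natriuretic peptide, rose from 1.41 ± 0.437 to 11.8 ± 0.697 CPM between CD44- sorts (2.90 ± 0.27, edgeR adjusted p = 4.30e-09). Dpep2, a membrane dipeptidase, rose in OG CD44+ (0.77 ± 0.11, edgeR adjusted p = 2.11e-06) and fell in R26 CD44+ (-0.38 ± 0.11, 0.00864).

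Phex and Dpep1 rose in R26 CD44+ against CD44-. Phex, a zinc peptidase of the neprilysin family, was at 2.76 ± 0.38 (edgeR adjusted p = 4.02e-06) and also rose between the OG sorts at 2.11 ± 0.30 (5.33e-06), from means of 0.58 ± 0.163 and 1.68 ± 0.234 CPM. Dpep1 rose from 4.21 ± 1.17 to 25.6 ± 9.81 CPM in R26 (2.51 ± 0.35, edgeR adjusted p = 7.84e-05). Fibroblast and pericyte marker sums were also higher in those CD44+ groups, and their part in these changes was not tested.

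**Figure D5:**
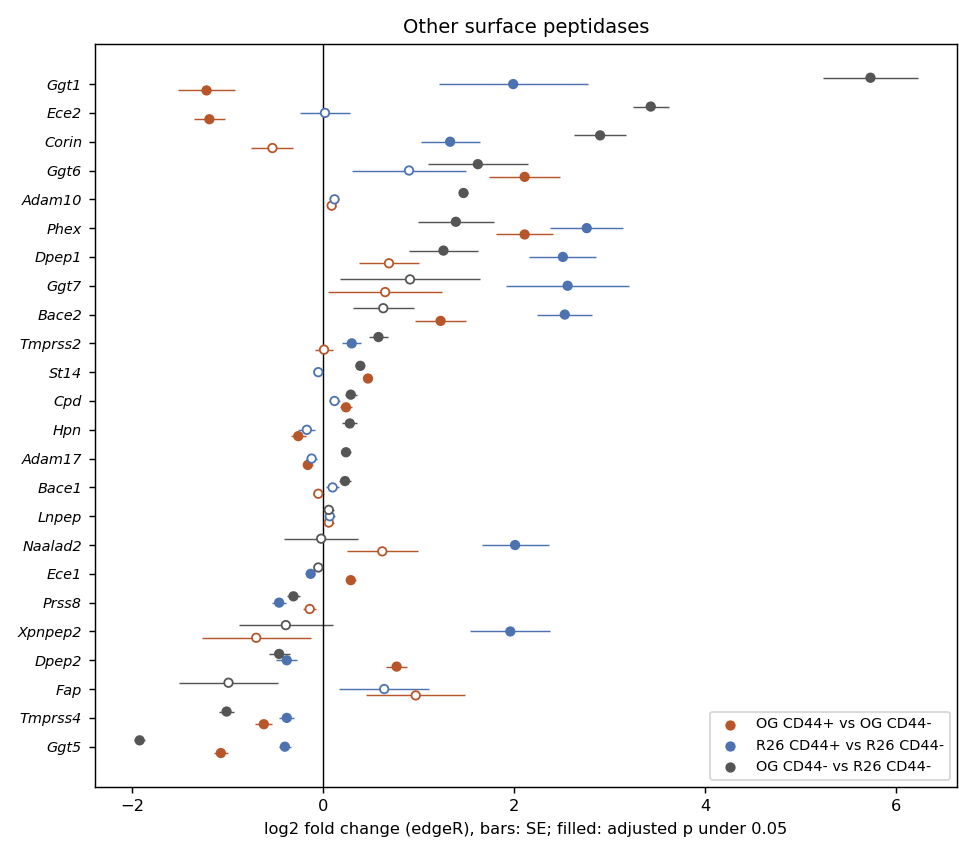
Log2 fold change (edgeR, bars of 1 SE) of 24 of the 25 other surface peptidases tested, in the OG and R26 CD44 comparisons and between CD44- sorts; filled points have an adjusted p under 0.05. Ggt5 and Tmprss4 lie left of 0 in all 3, and Adam10 has its only filled point, at 1.47, between CD44- sorts.

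Peptidases inside the cell were taken as a contrast in location, with 30 of 31 tested. Between the OG sorts 10 rose and 12 fell, against 22.3% and 28.0% of all genes (median -0.06, as for all genes), and without OG CD44- replicate 6 the number that rose was 5. In R26 3 rose and 9 fell, against 21.6% and 15.4% of all genes (median -0.06, all genes -0.02). Without R26 CD44+ replicate 2, 15 fell, against 28.2% of all genes. The number that rose in R26 was 1 when any R26 CD44- library, R26 CD44+ replicate 7 or R26 CD44+ replicate 1 was left out. In those settings 18.5% to 19.2% of all genes rose. Between prefixes 16 rose and 9 fell in OG in each sort (medians 0.36 in CD44- and 0.28 in CD44+, all genes 0.12 and -0.01), against 39.4% and 29.6% of all genes in CD44- and 34.5% and 34.6% in CD44+. Dpp9, a cytosolic relative of Dpp4, fell in all 4 comparisons, with means of 262 ± 7.54, 233 ± 4.73, 186 ± 4.51 and 109.7 ± 1.87 CPM and -0.78 ± 0.04 between the OG sorts (edgeR adjusted p = 8.15e-13). Ide, insulin-degrading enzyme, went the other way between CD44- sorts, from 66.0 ± 3.43 to 276 ± 6.72 CPM (1.89 ± 0.05, edgeR adjusted p = 5.13e-20). Thop1, an oligopeptidase, rose there too (1.60 ± 0.10, edgeR adjusted p = 3.82e-13), and Dpp3 rose between CD44+ sorts (1.31 ± 0.07, 6.20e-14). Ctsc, the lysosomal dipeptidyl peptidase, was abundant at 1134 ± 23.1 CPM in R26 CD44- and fell in R26 CD44+ (-0.41 ± 0.05, edgeR adjusted p = 1.72e-06).

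Genes of peptides that such enzymes process, and of their receptors, numbered 52, of which 30 were tested. In the CD44 comparison of OG 12 rose and 5 fell, against 22.3% and 28.0% of all genes (median 0.46, all genes -0.06). In R26 20 rose and 3 fell, against 21.6% and 15.4% (median 1.69, all genes -0.02). Between CD44- sorts 17 rose and 5 fell in OG, against 39.4% and 29.6% (median 0.90, all genes 0.12), and between CD44+ sorts 8 rose and 12 fell, against 34.5% and 34.6% (median -0.04, all genes -0.01). The sums of B and plasma cell, airway, fibroblast and pericyte markers were also higher in CD44+ of both prefixes, and their part in these counts was not tested. Natriuretic peptide receptors, whose ligands neprilysin degrades, split. Npr1 averaged 338 ± 9.91, 259.8 ± 11.9, 190.4 ± 7.19 and 110.4 ± 7.53 CPM and fell in each comparison, at -0.80 ± 0.06 between the OG sorts (edgeR adjusted p = 3.14e-10) and -1.0 ± 0.06 between CD44- sorts (3.11e-13). Npr2 fell as well, at -1.13 ± 0.05 between CD44- sorts (edgeR adjusted p = 1.18e-15), whereas Npr3, the clearance receptor, rose in R26 CD44+ from 1.06 ± 0.435 to 5.61 ± 1.99 CPM (2.33 ± 0.28, edgeR adjusted p = 5.02e-07).

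Edn1, which encodes endothelin 1, rose in OG CD44+ from 6.28 ± 1.07 to 23.1 ± 1.48 CPM (1.85 ± 0.19, edgeR adjusted p = 1.04e-07). Vipr2, a receptor for vasoactive intestinal peptide, rose between CD44- sorts from 5.20 ± 0.296 to 58.4 ± 3.36 CPM (3.32 ± 0.11, edgeR adjusted p = 1.75e-18) and fell between the OG sorts (-0.82 ± 0.09, 5.36e-08). The chemokine gene Cxcl12, whose product Dpp4 can inactivate, rose in R26 CD44+ from 2.26 ± 0.887 to 30.3 ± 9.18 CPM (3.67 ± 0.31, edgeR adjusted p = 5.19e-07). Its receptor gene Cxcr4 rose in CD44+ of both prefixes, at 1.78 ± 0.16 in OG (edgeR adjusted p = 5.09e-09) and 1.68 ± 0.15 in R26 (3.77e-09), and was lower in OG than in R26 in each sort. Calcrl, also on the endothelial list, rose in R26 CD44+ (2.54 ± 0.25, edgeR adjusted p = 9.77e-07) and fell in OG CD44+ (-0.68 ± 0.25, 0.0334). Fibroblast, pericyte and endothelial marker sums differed between the sorts of both prefixes. The B and plasma cell marker sum and Ptprc, given above, were higher in CD44+ of both. The part of these markers in the changes of this paragraph was not tested. Agt and Ren1, the genes of the angiotensin precursor and of renin, had 50 and 10 counts over all 16 libraries and were not tested.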

How the data were processed

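Raw counts per gene were deposited by the authors as 1 table of 16 libraries, with no normalization. Per the labels' protocols, total RNA was depleted of ribosomal RNA and made into stranded libraries. Per the submitters' processing notes, Bowtie2 and the mm10 build were used. The counting program, annotation and strand setting are not given in the sources used here. A symbol was found for 25275 (93.0%) of the 27179 identifiers, but not for 100861531, which took up 7.32% of counts and was kept.

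Computed here were CPM over library totals and, using edgeR 4.0.16 (R 4.3.3), a filterByExpr filter, TMM scaling (factors 0.8969 to 1.0837) and a robust quasi-likelihood fit of 4 group means, with Benjamini-Hochberg adjustment over 15516 genes and a threshold of 0.05. Each log2 fold change was divided by the square root of its F statistic to give an SE. Every adjusted p in the text is from this edgeR fit. DESeq2 1.42.0 was an alternative. The procedure was run on simulated data with few genes changed, as many up as down, and the same spread for all genes. Recovery of changed genes was not required there for the OG minus R26 difference. Many more genes were called in these data, so that run does not bear on the scaling used here. Members and gene lists were chosen with earlier results of these data known. In each list and comparison, the 3 called genes with the smallest adjusted p each way and mean log2 CPM of at least 1 could be named. Agt and Ren1, as untested members of the angiotensin pathway, were named after their counts were seen. Of the surface peptidases tested, 1 is counted with its list and is not reported here.

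CD44- and CD44+ libraries of R26 with the same number were taken as pairs, since the correlations of their deviations from the group means were 0.24, 0.22, 0.18 and 0.13 for numbers 8, 7, 2 and 1. No label states that a number is 1 animal. Library totals set the depth, and reads were not marked by molecule.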

Additional observations from a re-analysis of the deposited data

Results flagged for a closer look

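Single libraries stood far from the other 3 of their group for 10 of 180 groups of 4 (45 genes), and chance flags about 1 in 20 groups. Among the 6 peptidases this held for Mme alone, where OG CD44- replicate 3 was the lowest at 248 CPM. The highest library was set apart for St14 in OG CD44+ (295 CPM), Phex in R26 CD44+ (7.05) and OG CD44+ (13.4), Nln in R26 CD44- (16.9), Ednra in OG CD44+ (36.0) and Npr3 in R26 CD44+ (8.57). The lowest was set apart for Dpep1 in OG CD44- (9.71 CPM), Rnpep in OG CD44+ (56.6) and Vipr2 in OG CD44- (53.4).

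The CD44 log2 fold change differed between OG and R26, by edgeR's test of the difference with an adjusted p under 0.05, for 24 genes named here from the lists. Called higher and lower were 4 and 7 of 25 other surface peptidases, 3 and 4 of 30 intracellular peptidases, and 2 and 16 of 30 ligand and receptor genes. Over all genes 6.57% were higher and 18.1% lower. With OG CD44- replicate 7 as the TMM reference these shares were 15.3% and 10.9%. OG minus R26 values among other surface peptidases were 0.51 for St14, 1.15 for Dpep2, 0.33 for Prss8 and 0.42 for Ece1, which cleaves big endothelin. They were -0.66 for Ggt5, -1.22 for Ece2, -1.82 for Dpep1 and -1.86 for Corin. Intracellular peptidases were at 0.40 for Nln, 0.34 for Prep, 0.27 for Ctsa, -0.52 for Dpp9, -0.59 for Ide, -1.59 for Cpe and -0.61 for Dpp7. Ligand and receptor genes were at 1.12 for Edn1, 0.65 for Ramp1, -1.13 for Ednra, -0.33 for Npr1, -1.75 for Vipr2, -1.13 for Npr3, -2.27 for Cxcl12, -3.23 for Calcrl and -1.21 for Edn3.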

How the results depend on the processing

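Over 30 results for the 6 peptidases 702 fold changes were recomputed. None changed sign and 102 moved by more than the spread between replicates. Of 702 list counts 38 moved by over 1.5 times. The cause was not tested unless stated. The median gene shifted by up to 0.15 with OG CD44- replicate 7 as TMM reference (OG minus R26) and by -0.11 with only the 8 libraries compared (CD44- sorts), and fold changes are to be read against such shifts. The same holds for leaving out any 1 R26 library, which shifted it by 0.12 (OG minus R26) and -0.11 (CD44- sorts). With the column number as a replicate block, fold changes of the 6 in the CD44 comparisons were within 0.01 of those reported (Anpep -0.56 in R26). In the block 6 intracellular peptidases had a higher and 7 a lower CD44 log2 fold change in OG than in R26, against 3 and 4 without pairing, and no other list count moved by over 1.5 times. With the block 9.34% of all genes were higher and 22.7% lower, against 6.57% and 18.1% without. No block could be fitted between prefixes, since each number, read as 1 animal, belongs to 1 prefix. For OG the pairing rests on the number alone: the correlations of deviations from the group means were 0.05, 0.02, 0.03 and 0.10 for numbers 7, 6, 5 and 3, and 7 of 8 libraries correlated best with their own number, against 8 of 8 in R26, as a hint from the data. Leaving out both libraries of OG replicate 3 moved none of these counts by over 1.5 times.

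In OG CD44+ against CD44-, Dpp4 was at -0.87 and Cpm at -0.94 with only the 8 libraries compared, and at -0.87 and -0.95 with the other TMM reference. In R26, that reference gave -0.52 for Mme and -0.49 for Dpp4. Between CD44- sorts, Mme, Dpp4 and Enpep were at -1.66, -1.28 and -1.12 both with DESeq2 size factors and with the DESeq2 Wald test. They were at -1.53, -1.15 and -0.99 with no filter on low counts, and Mme and Dpp4 at -1.65 and -1.27 with at least 50 counts in 4 libraries. With only the 8 libraries compared Mme, Dpp4, Enpep and Cpm were at -1.68, -1.30, -1.14 and -1.97, and with the other TMM reference at -1.69, -1.31, -1.15 and -1.98. For OG minus R26 that reference gave -1.16 for Mme, -0.39 for Dpp4, -0.33 for Enpep and -0.26 for Cpm.

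With at least 50 counts in 4 libraries fewer genes were tested, 12436 in all. How many of each list were among them is not given here, so these counts cannot be set directly against those above. Ligand and receptor genes that rose then numbered 7 in OG CD44+, 10 in R26 CD44+ and 11 between CD44- sorts, 6 fell between CD44+ sorts, and 7 had a lower CD44 log2 fold change in OG than in R26. The shares of all genes, in the same order, were 22.9%, 19.5%, 40.4%, 36.7% and 19.4%. Other surface peptidases that rose in R26 CD44+ were 5, and 3 fell between CD44+ sorts. With no filter 9 ligand and receptor genes fell between CD44- sorts, against 20.4% of all genes. In R26 CD44+ against CD44-, 1 intracellular peptidase rose with DESeq2 size factors, with the DESeq2 Wald test and with the other TMM reference. The shares of all genes were 20.5%, 20.5% and 19.2%. In the same comparison 3 other surface and 5 intracellular peptidases fell with only the 8 libraries compared, against 9.3% of all genes. With the other TMM reference 8 other surface peptidases fell, against 31.1% of all genes. That reference gave 5 intracellular peptidases lower between CD44+ sorts, against 32.3% of all genes. For OG minus R26, intracellular peptidases called higher were 6 with DESeq2 size factors, 6 with the Wald test and 10 with the other TMM reference. The shares of all genes were 9.41%, 9.8% and 15.3%.

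Leaving out each library in turn gave these ranges. In OG CD44+ against CD44- Cpm ran from -1.03 to -0.96, and 5 to 11 intracellular peptidases and 3137 to 4098 of all genes rose. In R26 Anpep ran from -0.78 to -0.53, Mme from -0.55 to -0.42, Dpp4 from -0.48 to -0.39, Enpep from -0.64 to -0.50 and Cpm from -0.81 to -0.59, while 5 to 8 other surface peptidases fell, 1 to 3 intracellular peptidases rose and 9 to 15 fell. Over all genes 2898 to 3475 rose and 2307 to 4429 fell in that comparison. Between CD44- sorts Anpep ran from -2.71 to -2.49, Mme from -1.71 to -1.58, Dpp4 from -1.34 to -1.20, Enpep from -1.17 to -1.03 and Cpm from -2.02 to -1.86. For OG minus R26, Anpep ran from -1.76 to -1.42, Mme from -1.38 to -1.13, Dpp4 from -0.56 to -0.40, Enpep from -0.55 to -0.28, Cpm from -0.44 to -0.15 and Ace from -1.15 to -0.81. Intracellular peptidases with a higher CD44 log2 fold change in OG ran from 2 to 11, and over all genes 824 to 2419 were higher and 1651 to 2865 lower. Depth limits the low genes most, such as Phex and Ece2 in R26 CD44-.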
